A study of Rattus norvegicus with 5 samples.

Results

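The genes described here are the invariant chain Cd74 and 3 chains of the rat major histocompatibility complex (MHC) class II molecules, RT1-Da, RT1-Ba and RT1-Bb. They were chosen by their Ensembl identifiers, ENSRNOG00000018735 for Cd74, ENSRNOG00000032844 for RT1-Da, ENSRNOG00000000451 for RT1-Ba and ENSRNOG00000032708 for RT1-Bb, and all 4 were found among the 35495 features of the deposited tables. The microglia came from offspring of Sprague Dawley dams that had been injected during pregnancy, on gestational day 8.5, with an adenovirus. In the CYP11A1 group the virus carried the CYP11A1 gene, whose enzyme starts steroid hormone synthesis, and in the control group it was the control vehicle virus. The dams, not the sequenced offspring, received the virus, and in the vector the gene stood behind a CMV promoter, which is not restricted to one cell type. The libraries were control 1, control 3, CYP11A1 1, CYP11A1 2 and CYP11A1 3, so n = 2 and n = 3. The paper states 3 rats per group for the transcriptome, and no library numbered control 2 is among the samples. The sequenced offspring were male. The sample labels give their age as 3 months, the methods text gives a younger age, and the number of dams they came from is not given in the sources used here.

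MHC class II molecules are pairs of an alpha and a beta chain that carry peptides from ingested protein to the cell surface, where CD4+ T cells read them. The invariant chain holds newly made pairs together, blocks their peptide groove and directs them to the endosomes. In the brain these genes are low in resting microglia, rise when microglia meet interferon-gamma, and are strongly expressed by macrophages at the borders of the brain, by dendritic cells and by B cells. RT1-Da is the alpha chain of the D molecule, the rat counterpart of human HLA-DR. RT1-Ba and RT1-Bb are the alpha and the beta chain of the B molecule, the counterpart of human HLA-DQ.

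The promoters of class II genes share short elements called the X box and the Y box, which are bound by the RFX complex and by NF-Y and on which the coactivator CIITA acts. The stretches that hold these letters are shown because the 4 genes belong to this shared scheme, and their levels can be read beside it. All 4 genes matched an entry by symbol in the promoter table of RefSeq (build GRCr8), and the build behind the read counts is not given in the sources used here. Sequences run 5′ to 3′ on the strand of the gene, and capitals mark the letters searched for, CTGATTGG of the Y box and GCAAC or ACAGATG of the X box. These letters were chosen after the sequences had been seen.
RT1-Da, chr20:4515315-4515384, plus strand: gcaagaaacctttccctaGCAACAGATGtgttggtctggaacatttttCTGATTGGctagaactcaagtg
RT1-Ba, chr20:4576957-4577026, plus strand: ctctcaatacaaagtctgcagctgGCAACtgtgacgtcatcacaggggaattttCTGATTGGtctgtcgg
RT1-Bb, chr20:4604169-4604238, minus strand: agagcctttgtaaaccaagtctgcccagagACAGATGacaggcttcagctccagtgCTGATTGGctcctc
Cd74, chr18:56527116-56527145, plus strand: tggctttcagttccacattaGCAACgtggg

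The 3 class II chains each held CTGATTGG once in the 250 bases before the start site, in the sense direction. In RT1-Da and RT1-Ba the letters GCAAC stood upstream of it with a gap of 25 bases in both genes. In RT1-Bb the upstream letters were ACAGATG with a gap of 19 bases, and in RT1-Da ACAGATG overlapped GCAAC and left a gap of 20 bases. The stretch of Cd74 held GCAAC, and no CTGATTGG was found in its 250 bases, which says only that these letters are not in this window. Over all 33469 RefSeq promoters, CTGATTGG occurred on either strand in 3.19%, GCAAC (reverse GTTGC) in 29.5% and ACAGATG (reverse CATCTGT) in 4.4%. The shorter letters ATTGG (reverse CCAAT), which are contained in CTGATTGG, occurred on either strand in 34.0%. Outside CTGATTGG they were found on the other strand in Cd74, at positions -189 to -185 from the start site, and in RT1-Bb, at positions -172 to -168. In Cd74 GCAAC stood downstream of them, at positions -70 to -66. That is the reverse of the order of GCAAC or ACAGATG before CTGATTGG in the 3 class II chains. Whether GCAAC in Cd74 is part of an X box was not tested. The spaced arrangement, with GCAAC or ACAGATG lying 15 to 35 bases before CTGATTGG on the sense strand, was found in 21 promoters (0.0627%). These belonged to 19 gene symbols, of which 7 were RT1 class II genes (RT1-Ba, RT1-Bb, RT1-Da, RT1-Db1, RT1-Db2, RT1-DOa and RT1-Ha). RT1-Ba, RT1-Bb and RT1-Da had to be among them. The letters were chosen after their sequences had been seen, and the range takes in their gaps of 19, 20 and 25 bases. In the order of the reference, RT1-Ba and RT1-Bb are neighbours with 0 protein-coding genes between them, 2 genes (RT1-Db2 and RT1-Db1) lie between RT1-Da and RT1-Ba, and Cd74 lies on another chromosome.

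**Figure D1:**
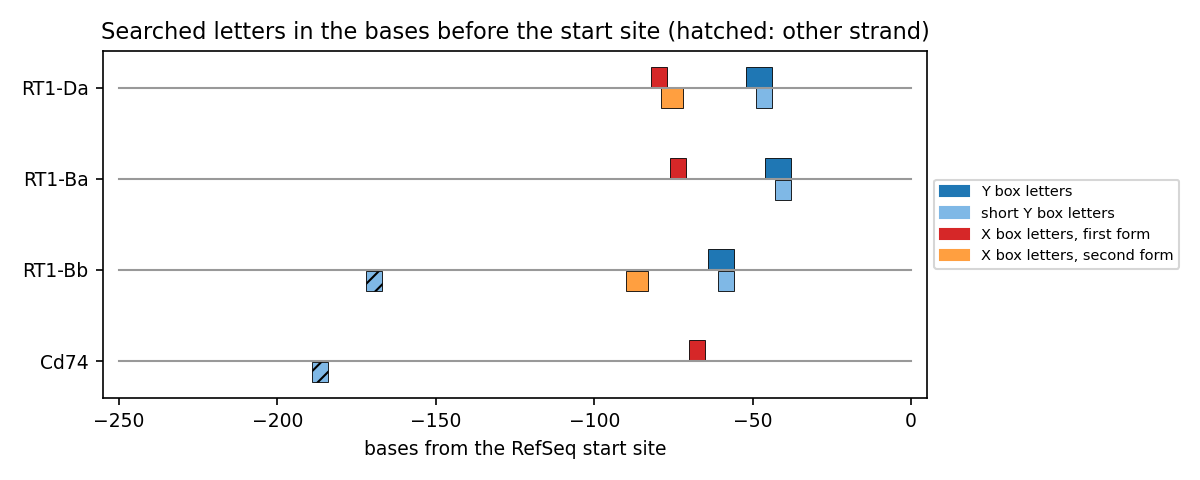
Position of the searched letters in the 250 bases before the RefSeq start site of each gene; the x axis is the distance from the start site in bases, each box is 1 match, and hatched boxes lie on the other strand. The 3 class II chains have the X box letters 19 to 25 bases before the Y box letters. Cd74 has the letters GCAAC near its start site and the short Y box letters on the other strand farther upstream, which is the reverse order.

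Total counts lay between 9623896 and 13624545 per library, and the 4 genes together took between 0.00461% (CYP11A1 1) and 0.0819% (CYP11A1 3) of them. Control 1 and CYP11A1 3 had the highest totals (13624545 and 13238480) and yet the fewest detected features (12042 and 10766, against 14953 to 16969 in the others). The reference used here paired no identifier with a gene symbol. The defining markers of microglia, border macrophages, dendritic cells, B cells and T cells were therefore not analysed here. Nor were those of blood cells, neurons and glia, the other genes of the class II pathway, or Cyp11a1 itself. In these bulk libraries, fewer cells that carry class II and less class II RNA per cell cannot be told apart.

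RT1-Da, the alpha chain of the D molecule, was the most abundant of the 4 genes in every library. Its level per length, in FPKM (counts scaled to the total of the library and to the length of the feature), was 353 in control 1 and 54.9 in control 3. In CYP11A1 1, 2 and 3 it was 34.6, 116 and 686 FPKM. The highest values were in control 1 and CYP11A1 3, 1 library of each group, and the groups overlapped over most of their range. The underlying counts were 4613 and 507 in the controls and 366, 1173 and 8715 in the CYP11A1 libraries, so counting error was small beside these differences. The exact Poisson interval of the lowest, 366, ran from 329 to 405 counts at the 95% level, and like all such intervals here it covers counting error only.

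Cd74, the invariant chain, was lower than RT1-Da in all 5 libraries and followed the same order at its top. It reached 46.1 FPKM in control 1 and 4.78 FPKM in control 3, from 641 and 47 counts. In CYP11A1 1, 2 and 3 it reached 9.67, 8.76 and 151 FPKM, from 109, 94 and 2041 counts. Control 1 and CYP11A1 3 again stood above the remaining libraries. The lower of them, control 1, was 4.77-fold above the highest of the other 3 for Cd74, and 3.03-fold for RT1-Da, in FPKM. After scaling with the TMM factors of edgeR, which correct the library size for composition, these values were 3.03 for Cd74 and 4.24 for RT1-Da. Among the 10346 features that passed the filter on low counts, 1648 (15.9%) had both of these libraries above the other 3. The low number of detected features moved with this pattern, and its part in the result was not tested.

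RT1-Ba, the alpha chain of the B molecule, had another order of libraries. It was at 1.58 FPKM in control 1 and 2.49 FPKM in control 3, from 18 and 20 counts. In CYP11A1 1, 2 and 3 it was at 3.14, 13.9 and 6.69 FPKM, from 29, 122 and 74 counts. CYP11A1 2 was thus the highest and control 1 the lowest, and the point values of the groups did not overlap. Before TMM scaling the nearest libraries, control 3 and CYP11A1 1, were within counting error of each other. Their exact Poisson intervals were 1.27 to 3.21 CPM and 1.76 to 3.77 CPM. With TMM scaling these libraries lay farther apart, at 1.96 and 4.27 CPM. Their TMM factors were 1.06 and 0.615, and that of CYP11A1 1 was the lowest of all libraries. After TMM scaling, such a separation with CYP11A1 higher was found in 6.49% of the features tested. The library with the second highest RT1-Da, control 1, had the lowest RT1-Ba.

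RT1-Bb, the beta chain that pairs with RT1-Ba, was the lowest of the 4 genes in every library. Control 1 had 0 counts, for which a floor of 3 counts (0.219 FPKM) was used, and the 2-sided exact Poisson interval reaches 3.69 counts. Control 3 had 5 counts (0.516 FPKM). CYP11A1 1, 2 and 3 had 5, 29 and 10 counts (0.45, 2.74 and 0.751 FPKM). CYP11A1 2 was the highest, as for RT1-Ba. On the FPKM scale CYP11A1 1 lay below control 3, and the exact Poisson intervals of these 2 libraries, each from 1.62 to 11.7 counts, were the same, so that no difference between them was detectable at this depth.

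**Figure D2:**
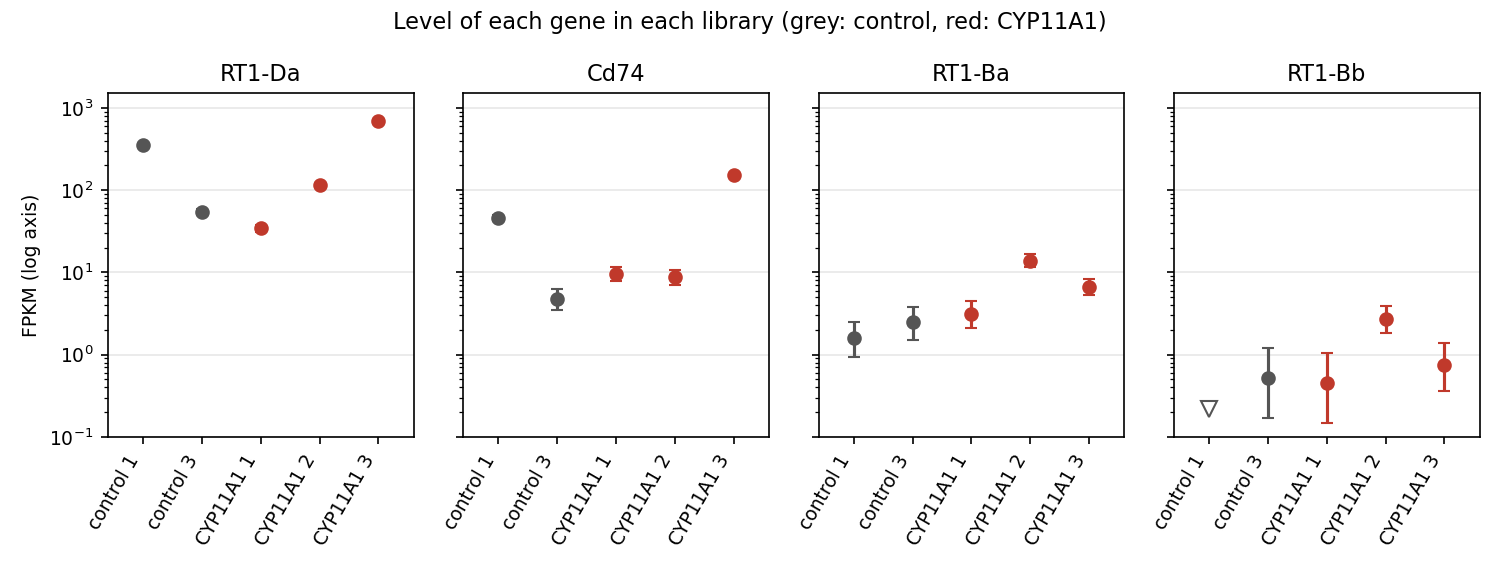
FPKM (log axis) of each gene in each library; bars are 95% exact Poisson intervals of the counts, grey marks control and red CYP11A1, and the open triangle is the floor of 3 counts (0.219 FPKM) for control 1, which had 0 counts. RT1-Da and Cd74 are highest in control 1 and CYP11A1 3, and RT1-Ba and RT1-Bb are highest in CYP11A1 2.

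The order of the 4 levels per length was RT1-Da, Cd74, RT1-Ba and RT1-Bb in 4 of 5 libraries. The exception was CYP11A1 2, where RT1-Ba (13.9 FPKM) stood above Cd74 (8.76 FPKM). RT1-Da exceeded between 95.2% and 98.5% of the features detected in a library, and Cd74 between 78.6% and 95.03%. RT1-Ba exceeded between 55.3% (control 1) and 89.2% (CYP11A1 2). RT1-Bb exceeded between 36.8% and 69.3% in the 4 libraries in which it was detected. RT1-Da thus kept its place near the top of every library, while its level differed 19.9-fold between CYP11A1 3 and CYP11A1 1 in FPKM and 10.4-fold after TMM scaling.

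**Figure D3:**
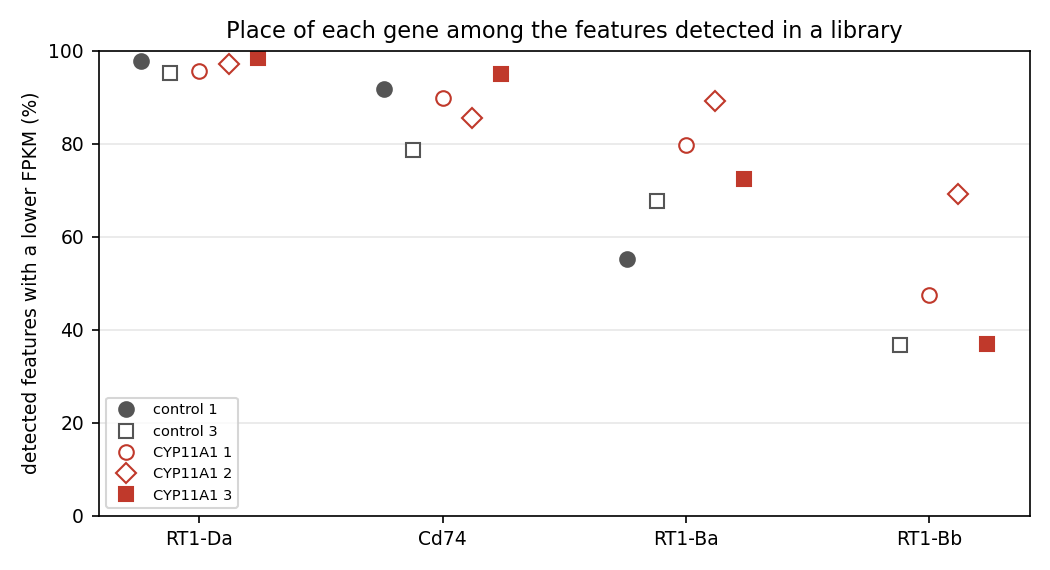
Share of the features detected in a library that had a lower FPKM than the gene (y axis, %), with 1 point per library; filled symbols are control 1 and CYP11A1 3. RT1-Da lies between 95.2% and 98.5% in all libraries, while RT1-Ba spreads from 55.3% to 89.2%.

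Ratios within a library do not depend on how the library was scaled. The ratio of RT1-Da to Cd74 was 7.66 and 11.5 in the controls and 3.57, 13.3 and 4.55 in CYP11A1 1, 2 and 3. The ratio of RT1-Da to RT1-Ba, the alpha chains of the D and the B molecule, ranged much more widely. It was 223 in control 1 and 22.1 in control 3, and 11.0, 8.38 and 103 in CYP11A1 1, 2 and 3. The D alpha chain was therefore over the B alpha chain in every library, and the excess was largest in control 1 and CYP11A1 3. The ratio of RT1-Ba to RT1-Bb, the partner chains of the B molecule, was 4.81 in control 3. In CYP11A1 1, 2 and 3 it was 6.98, 5.06 and 8.9. In control 1, where RT1-Bb had 0 counts, the floor of 3 counts put it at 7.22. That value is no firm lower bound, because the exact Poisson interval of 0 counts reaches 3.69 counts. The other ratios rest on few RT1-Bb counts, 5 in control 3 and 5, 29 and 10 in CYP11A1 1, 2 and 3. The partner of RT1-Da was not analysed here.

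**Figure D4:**
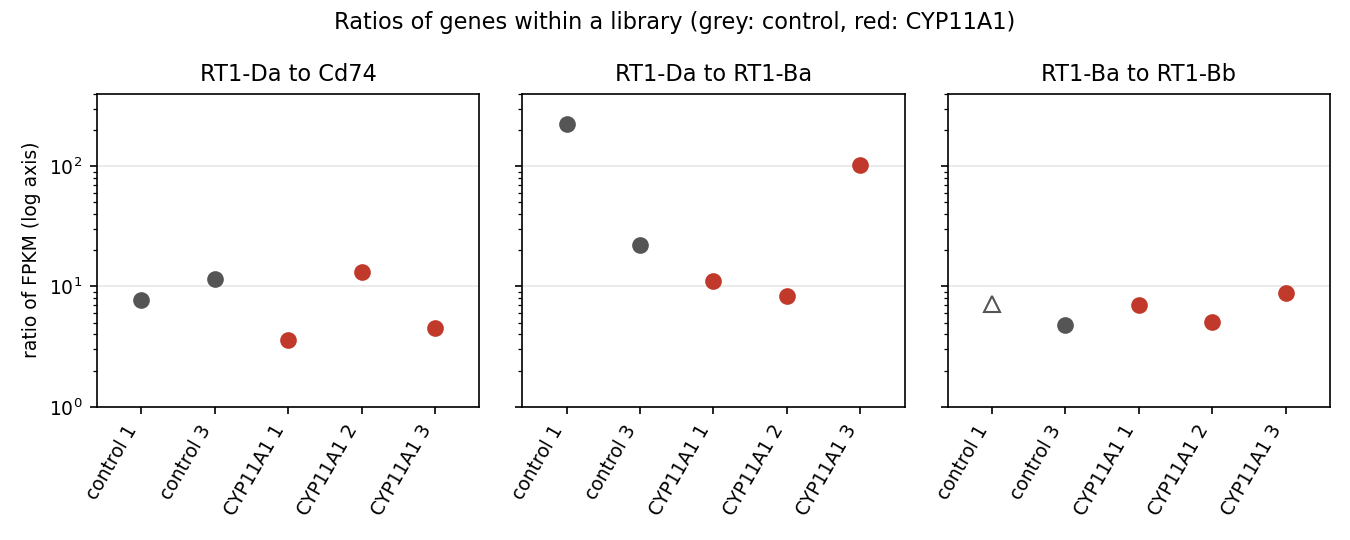
Ratio of the FPKM of 2 genes within each library (log axis). Grey marks control and red CYP11A1. The open triangle is the value of 7.22 for RT1-Ba to RT1-Bb in control 1, formed with the floor of 3 counts because RT1-Bb had 0 counts. RT1-Da to RT1-Ba spans 8.38 to 223, and RT1-Da to Cd74 spans 3.57 to 13.3.

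The invariant chain was set against the class II chains together, because it escorts them in the cell. Cd74 was at 0.13 and 0.0826 of the summed FPKM of RT1-Da, RT1-Ba and RT1-Bb in control 1 and control 3. In CYP11A1 1, 2 and 3 it was at 0.253, 0.0659 and 0.218. RT1-Da made up most of the sum, from 116 of 133 FPKM in CYP11A1 2 to 353 of 355 FPKM in control 1. This comparison therefore largely repeats the ratio of RT1-Da to Cd74, turned over, and the D beta chain is not in it. The mean log2 ratio was -3.27 ± 0.46 (SD, n = 2) in the controls and -2.70 ± 1.06 (SD, n = 3) in the CYP11A1 libraries. The difference of 0.57 was smaller than the SD within the CYP11A1 group, and the values overlapped. With 1 library left out, the difference was 0.90 without control 1, 0.24 without control 3, 0.21 without CYP11A1 1, 1.18 without CYP11A1 2 and 0.32 without CYP11A1 3. CYP11A1 2 was the one CYP11A1 library whose ratio lay below both controls.

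Likeness of pattern was measured as the root mean square difference of log2(CPM + 1), scaled with TMM and centred on each gene, over the 5 libraries. It is a description of 5 points and carries no test. RT1-Da differed from Cd74 by 0.66, and 38 features were nearer to Cd74 among 10346 compared. Seen from RT1-Da, 305 features were nearer than Cd74. The median difference of all features from Cd74 was 1.95. RT1-Ba differed from Cd74 by 1.92, close to that median. Seen from RT1-Ba, whose median difference from all features was 0.97, Cd74 ranked 10189 of 10346 and was among the farthest. The measure takes in how widely a gene varied as well as its order of libraries. The SD of log2(CPM + 1) within the groups was 2.16 for Cd74 and 0.40 for RT1-Ba, so this rank does not measure order alone. RT1-Bb differed from RT1-Ba by 0.30, where 29 features were nearer, and the added 1 draws genes as low as these together. Seen from RT1-Bb, 116 features were nearer than RT1-Ba. Among the 4 genes, each was nearest to its partner in the pairs RT1-Da with Cd74 and RT1-Ba with RT1-Bb, and many other features were as near or nearer. The features nearest to each gene carry identifiers without symbols and are not named.

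The comparison between the groups asks whether class II RNA differed in the microglia preparations from offspring of CYP11A1 dams. The paper identified these cells by Cd11b staining, and not all of them were positive. Of the 10346 features tested, 0 (0%) passed an adjusted threshold of 0.05 (quasi-likelihood test of edgeR, Benjamini-Hochberg method), 441 (4.26%) passed it unadjusted, and DESeq2 called 11. Of the 4 genes, 3 passed the filter on low counts and were tested, and 0 had an adjusted or unadjusted p under 0.05. The log2 fold changes were above 0 in all 3, as in 56.5% of the features tested, and the median log2 fold change of all features was 0.15.

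For RT1-Da the normalised level was 199.8 ± 212 CPM (SD, n = 2) in the controls and 233 ± 286 CPM (SD, n = 3) in the CYP11A1 libraries. Its log2 fold change was 0.22 ± 1.05 (SE), with an adjusted p of 0.9998 in the edgeR test. The 95% interval ran from -2.06 to 2.50, that is, from 0.24-fold to 5.66-fold. Cd74 was at 26.6 ± 31.1 CPM (SD, n = 2) and 51.4 ± 69.6 CPM (SD, n = 3). Its log2 fold change was 0.95 ± 1.22 (SE, interval -1.72 to 3.62), with an adjusted p of 0.9998 in the same edgeR test. The spread within the groups was large for both genes, with an SD of log2(CPM + 1) of 2.16 for Cd74 and 1.85 for RT1-Da. These were above 99.0% and 97.4% of the features tested, whose median was 0.82, and the added 1 compresses features at low levels. The quasi-likelihood dispersion, the spread used in the edgeR test, was above 93.7% of the features tested for Cd74 and 77.7% for RT1-Da. Single libraries set the sign. Without CYP11A1 3 the log2 fold changes were -1.26 for Cd74 and -1.50 for RT1-Da, without control 3 they were -0.04 and -0.70, and without control 1 they were 3.50 and 2.24. None of these had an adjusted p under 0.05 in edgeR's test.

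The values of RT1-Ba were higher in each CYP11A1 library than in both controls. The intervals of CYP11A1 1 and control 3 overlapped before TMM scaling, as given above. RT1-Ba was at 1.66 ± 0.42 CPM (SD, n = 2) in the controls and 5.88 ± 2.36 CPM (SD, n = 3) in the CYP11A1 libraries. The log2 fold change was 1.85 ± 1.06 (SE), or 3.61-fold, with an interval from 0.73-fold to 17.8-fold, an unadjusted p of 0.106 and an adjusted p of 0.9998 in the edgeR test. Groups that did not overlap, with CYP11A1 higher, were found in 671 of the 10346 features tested (6.49%, as above), and RT1-Ba is 1 of these. Its spread within the groups was below that of most features (SD of 0.40, above 10.4% of them), and low levels are compressed by the added 1. Its quasi-likelihood dispersion was above that of 25.7% of the features tested. With each library left out in turn the log2 fold change stayed between 1.33 and 2.11, and with at least 10 counts required in every library its unadjusted p in the edgeR test was 0.0482. In that fit 164 of 4777 features (3.43%) had an unadjusted p under 0.05, of which 42 were higher in the CYP11A1 group, and after adjustment no feature passed.

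RT1-Bb did not pass the filter on low counts and has no value in the main test. Its mean was 0.245 ± 0.346 CPM (SD, n = 2) in the controls and 1.14 ± 0.781 CPM (SD, n = 3) in the CYP11A1 libraries, after TMM scaling. On this scale the groups did not overlap, with 0 and 0.489 CPM against 0.736, 2.04 and 0.645 CPM, a pattern shared by 1008 of the 21072 features with at least 1 count (4.78%). Without TMM scaling they overlapped. CYP11A1 1 and control 3 had 5 counts each, so that CYP11A1 1 stood higher came from their TMM factors, 0.615 and 1.06. The ratio of the means was 4.66-fold and rested on 5 counts in the controls and 44 in the CYP11A1 libraries. It was 2.29-fold without control 1, the library with 0 counts, and 2.57-fold without CYP11A1 2, the highest. In edgeR's test without a filter, which was the only fit with all libraries that included it, the log2 fold change was 2.46 ± 1.90 (SE) and the adjusted p was 0.964.

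**Figure D5:**
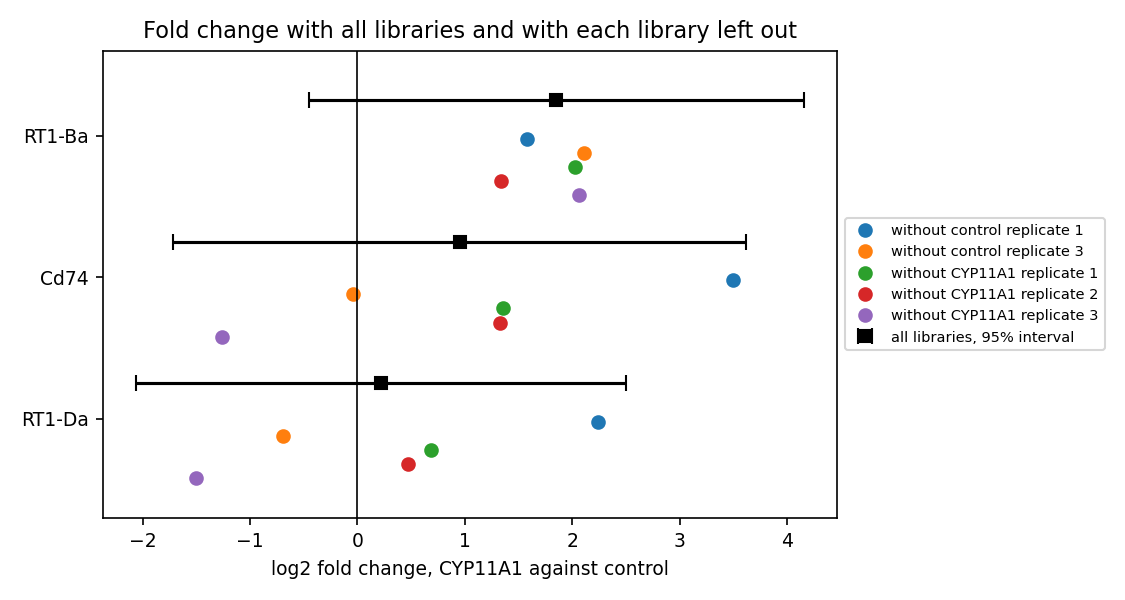
Log2 fold change of CYP11A1 against control (x axis) for the 3 genes tested; the black square is the value with all libraries and its 95% interval, and coloured points are the values with 1 library left out. RT1-Da and Cd74 fall on both sides of 0, and RT1-Ba stays between 1.33 and 2.11.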

How the data were processed

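Microglia were isolated on Percoll gradients, and cDNA was amplified with a kit for low RNA input in the study's methods, whereas the labels name a small RNA kit. The authors deposited whole-number counts per feature and FPKM, and the submitters' processing notes name HISAT2 2.0.4 and HTSeq 0.9.1. Build, annotation and read filters are not given in the sources used here. Class II genes are polymorphic and have similar copies, so alignment could lower their counts unevenly, which was not tested.

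Groups and replicate numbers came from sample titles. Counts (9623896 to 13624545 per library) were tested with edgeR 4.0.16 (R 4.3.3) after TMM scaling and filterByExpr with a minimum count of 10. Dispersions came from estimateDisp, followed by glmQLFit (legacy = FALSE) and glmQLFTest, with group as the only term and p-values adjusted over all features. The SE is the log2 fold change divided by the root of F. The test was tested on simulated data. Alternatives used DESeq2 1.42.0, limma 3.58.1 on log2(FPKM + 1) or log2(FPKM + 0.1), other scalings and filters, a replicate block, and each library left out. Nothing says whether the libraries came from separate litters, so p-values measure the spread between these samples.

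The members and lists were chosen with earlier results of these data known. The 4 members were always to be named. Gene lists (class II pathway, MHC class I, interferon-gamma axis, cell type markers) and the naming of genes with like patterns had been fixed for this work. They could not be run, since the reference used here paired 0 of 35495 identifiers with a symbol. Symbols of the members were given with their identifiers.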

Additional observations from a re-analysis of the deposited data

How the results depend on the processing

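The number of features past the adjusted threshold was 0 in the main edgeR test, 11 with DESeq2 and 10 without a filter on low counts, and 441 (edgeR) or 390 (DESeq2) at the unadjusted threshold of 0.05. The cause was not tested. With 1 library left out the count was 0 in each fit (lowest and highest 0), and 222 to 752 features had an unadjusted p under 0.05. Fits with 1 control assume that it varies like the other group. Over the 13 alternatives, the direction of RT1-Ba was kept in 13, and those of Cd74 and RT1-Da in 11 each. The 2 exceptions left out control 3 or CYP11A1 3. With libraries left out the log2 fold change ranged from -1.26 to 3.50 for Cd74, from -1.50 to 2.24 for RT1-Da and from 1.33 to 2.11 for RT1-Ba, and with the other alternatives from 0.61 to 1.46, 0.01 to 0.45 and 1.34 to 1.98. The lowest adjusted p of the 3 genes over these fits was 0.645. That of RT1-Bb, the log2 ratio of means of 2.22, ranged from 1.20 (without control 1) to 2.59 (without CYP11A1 3), and without control 3 no value could be formed because control 1 had 0 counts. The log2 ratio of Cd74 to the summed class II chains differed by 0.57 between the groups and by 0.21 to 1.18 with libraries left out.

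The replicate numbers 1 and 3 occur in both groups and share only a number. Their deviations had a correlation of -0.266 across 10346 features, which are not independent. With the replicate number as a block over these 4 libraries, the log2 fold changes were 1.46 for Cd74, 0.29 for RT1-Da and 1.34 for RT1-Ba, 0 features were called after adjustment and 101 before it. The crossed pairing, chosen after seeing the data, gave 0 and 355. The alternatives planned for the list of class II pathway genes were not run, for want of gene symbols, and the other scalings of RT1-Bb (2.29 and 2.35) were added after seeing the data. The counts of RT1-Bb, 0 to 29, limit what can be said of it.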
